A study of Mus musculus with 2 samples.

Results

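The 9 genes examined encode complement components that are made mainly by the liver: C3, C4b, Hc (the mouse name of C5), the 3 chains of C8 (C8a, C8b and C8g), C9, factor B (Cfb) and factor I (Cfi). They were chosen by name from the 43346 genes listed, by a rule that uses no measured value, though with earlier results of these data known, and all 9 were found by gene identifier in both gene tables. The samples were 2 liver libraries of newborn B6NCrl mice on postnatal day 0, labelled pup 1 (replicate 1) and pup 3 (replicate 2), with no treatment named and forming 1 group. Per the labels, each library was made from 13 pg of RNA longer than 200 nt, 1 cell-equivalent, and each pup gave a single liver, although both carry the same donor entry, so whether the replicates are separate animals is not settled and pup 1 and pup 3 are used as the labels give them. Values are TPM, transcript abundances corrected for length, with spike-ins removed and the rest rescaled to 1000000. A mean ± SD is over n = 2 libraries, whose spread may be animal or technical, and no test between conditions exists.

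Complement is a cascade of plasma proteins that marks and lyses microbes. The classical, lectin and alternative routes all cleave C3 to C3b, which coats surfaces, and then C5, which starts assembly of a membrane pore from C5b, C6, C7, C8 and many copies of C9. Factor B supplies the protease of the alternative C3 convertase, C4 supplies a subunit of the classical one, and factor I cuts C3b and C4b to end the reaction. Hepatocytes are the main source of these proteins in plasma, and macrophages make some of them too.

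Among the 9 members, Cfb and C3 had the highest levels, while the gene of the pore-forming component C9 had no counts at all. Cfb averaged 1206 ± 696 TPM and C3 933 ± 117 TPM, and together they made up 80.2% of the members' summed TPM in pup 1 and 62.1% in pup 3. Cfi followed at 284 ± 286 TPM, then C8b at 147 ± 39.5, C8g at 112 ± 55.6, Hc at 104 ± 56.0, C4b at 83.7 ± 50.8 and C8a at 83.1 ± 72.9 TPM. The ranges of neighbours in this order overlapped at every step but 2, namely between C3 and Cfi and between C8a and C9. The order within each library therefore differed, with Cfb first in pup 1 and C3 first in pup 3, and Cfi in place 7 in pup 1 and in place 3 in pup 3.

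**Figure D1:**
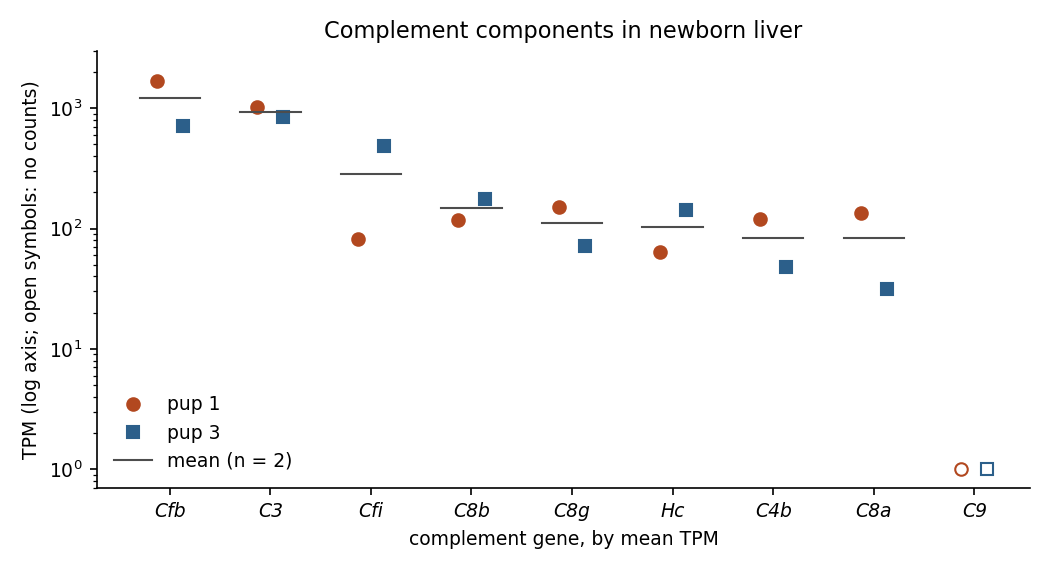
TPM on a log axis for the 9 complement genes in the library of pup 1 (circles) and of pup 3 (squares), with the mean of both as a line. Cfb and C3 stood at 714 TPM or more in both libraries, 6 genes lay between 31.5 and 486 TPM, and C9 had no counts, drawn as open symbols at the foot of the axis.

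Of the 9 genes, 8 reached 1 TPM in both libraries and 1 had no counts in either. Over all genes that reached 1 TPM in either library, 46.3% reached it in both, 8.2% of all genes listed did so, and 74.9% of all genes listed had no counts in either library. The members held 0.338% of TPM in pup 1 and 0.252% in pup 3, a mean of 0.295 ± 0.0610%. The 10 hepatocyte markers listed, all detected in both libraries, held 15.01% in pup 1 and 11.7% in pup 3. The members' sum was thus 2.25% of the markers' sum in pup 1 and 2.15% in pup 3. Summed macrophage and Kupffer cell markers ran the other way, with 0.0811% in pup 1 and 0.144% in pup 3. Of their 12 genes, 5, among them Cd68 and Timd4, had no counts in pup 1. Gene by gene, 9 of the 10 hepatocyte markers lay within 2-fold, with a median log2 ratio (pup 1 over pup 3) of -0.01. Of the macrophage markers, 6 lay within 2-fold and 6 were higher in pup 3, with a median of -1.05. The 2 leading genes of each list were Trf and Ahsg (64244 and 32190 TPM in pup 1, 42243 and 21893 in pup 3) for hepatocytes and C1qb and Lyz2 (259 and 112 in pup 1, 225 and 265 in pup 3) for macrophages. Erythroid markers held 13.3% in pup 1 and 16.4% in pup 3, neutrophil markers 0.692% and 0.920%, and stellate and endothelial markers 0.0615% and 0.0325%. The part of these cell types in the members' values was not tested. In tissue RNA fewer cells of a type and less RNA per cell cannot be told apart.

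C3, C4b and Hc belong to a family of large proteins related to alpha-2-macroglobulin, and their roles differ at a short site near the middle of the chain. C3 and C4 bind covalently to surfaces through a thioester formed there, whereas C5 lacks that bond. The coding stretches are shown because they separate the family members whose levels follow. Each runs 5′ to 3′ on the coding strand, read from GENCODE M21 transcripts on GRCm38, and the capitals mark the 5 codons of the C3 thioester site and those aligned to them.
C3: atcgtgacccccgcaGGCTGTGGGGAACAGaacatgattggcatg
C4b: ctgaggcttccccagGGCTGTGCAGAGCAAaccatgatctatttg
Hc: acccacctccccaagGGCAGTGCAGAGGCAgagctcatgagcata
In the 15 capital bases, C4b differed from C3 at 4 and Hc at 7, and over all 45 bases C4b differed at 20 and Hc at 23. The stretch lies in coding exon sequence on the minus strand of each gene, at chr17:57215829-57215873 in C3, at chr17:34734466-34734510 in C4b and at chr2:35013584-35013628 in Hc. In all 3 genes it falls in exon 24 of 41. Over the whole aligned coding regions, 31.5% of codons gave the same amino acid in C3 and C4b, 29.9% in C3 and Hc, and 28.3% in C4b and Hc.

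C3, the component on which all routes converge (chromosome 17, 57203970 to 57228136 in GRCm38), stood at 1015 TPM in pup 1 against 850 in pup 3, from 160803 and 122495 expected counts. Its libraries stood within 1.19-fold of each other, the closest of the 8 detected members in TPM, and it ranked 106 among endogenous features in pup 1 and 131 in pup 3. C4b, which the classical and lectin routes use (chromosome 17, 34728380 to 34743882), reached 120 TPM in pup 1 against 47.7 in pup 3, 2.51-fold higher in pup 1. Hc (chromosome 2, 34983331 to 35061438) reached 64.3 TPM in pup 1 against 144 in pup 3, 2.23-fold higher in pup 3. C3 therefore exceeded C4b by 8.49-fold in pup 1 and 17.8-fold in pup 3, and Hc by 15.8-fold in pup 1 and 5.92-fold in pup 3.

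The C4b value carries a limit from its near-identical copy C4a, which lies 65.2 kb away on the same strand. Transcripts C4b-201 and C4a-201 differed at 204 of 5357 aligned bases, and 16.5% of the 100-nt windows of C4b-201 also occur in C4a transcripts, so reads from those windows are divided by estimation. The split was nevertheless uneven. C4b was given 17715 reads in pup 1 against 6151 in pup 3, whereas C4a was given 799 in pup 1 against 443 in pup 3. Of C4a's TPM, 89.1% in pup 1 and 99.9% in pup 3 was assigned to C4a-206, a short transcript annotated as a retained intron. For C3, Hc, Cfi and the terminal pathway members, no 100-nt window of the transcript examined occurs in transcripts of another gene.

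Transcripts of the terminal pathway were uneven: Hc and the 3 chains of C8 were present in both libraries, while C6, C7 and C9 had no counts in either. C8 is made of an alpha and a beta chain that carry the membrane-attack fold also found in C9, and a small gamma chain of the lipocalin family bound to the alpha chain. C8a (chromosome 4, 104815679 to 104876398, minus strand) was at 135 TPM in pup 1 against 31.5 in pup 3, 4.27-fold higher in pup 1. C8b (chromosome 4, 104766317 to 104804548, plus strand), whose end lies 11.1 kb from that of C8a, was at 119 TPM in pup 1 against 175 in pup 3, 1.47-fold higher in pup 3. C8g (chromosome 2, 25498651 to 25501719) was at 151 TPM in pup 1 against 72.2 in pup 3, 2.09-fold higher in pup 1.

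In plasma the 3 chains stand in equal numbers. Their transcripts were close to equal in pup 1, with a C8a to C8b ratio of 1.13 and a C8g to C8b ratio of 1.27. In pup 3 the same ratios were 0.180 and 0.413, so C8b exceeded C8a by 5.55-fold and C8g by 2.42-fold. Ratios within a library do not depend on how its total is scaled, but they do on the length assigned to each gene. C8g overlaps Fbxw5, which runs on the other strand, over 970 nt at its start. The sources used here do not say if strand entered the counting. No 100-nt window of C8g-201, the form that begins at the gene start, occurs on either strand in transcripts of another gene. Shorter shared stretches were not searched. Fbxw5 stood at 37.6 TPM in pup 1 and at 0 counts in pup 3. Its part in the C8g difference was not tested. C8g-202, C8g-204 and C8g-207 start 1106, 1464 and 1476 nt inside the gene and so outside the overlap. They were estimated at 23.2, 52.9 and 13.4 TPM in pup 1 and at 14.4, 31.0 and 2.87 TPM in pup 3. C8g-201 was estimated at 61.2 TPM in pup 1 against 23.9 in pup 3.

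C9 (chromosome 15, 6445327 to 6498751, plus strand) polymerises into the wall of the pore. A count of 0 allows up to 3 counts per library, or 0.0369 TPM in pup 1 and 0.0537 TPM in pup 3 over its 2048 nt transcript. These limits cover counting error only, and reads amplified by PCR are not independent molecules. Genes counted in a single library were common at low levels. Of genes at 30 to 100 TPM in pup 1, 27.1% had no counts in pup 3, and of those at 30 to 100 TPM in pup 3, 24.0% had none in pup 1. At 100 to 300 TPM the shares were 4.12% and 5.62%, and at 300 to 1000 TPM 0.346% and 0.292%. A count of 0 beside such a level in the other library was thus common at the level of C8a in pup 3 and rare at the levels of Cfb and C3, and whether it came from the animals or the libraries was not tested. The coding regions of C8a and C9 gave the same amino acid at 35.8% of aligned codons, those of C8b and C9 at 33.0% and those of C8a and C8b at 35.0%, and no 100-nt window of C9-201 occurs in another gene.

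The promoter windows of C3, the most abundant member with an entry in the table used, and of C9, the uncounted member, are shown side by side. Each spans 250 bases before to 50 bases after the RefSeq start on GRCm38.p6, 5′ to 3′ along the gene, and capitals mark matches to the motifs searched. C3 lies at chr17:57228087-57228386 on the minus strand and C9 at chr15:6445096-6445395 on the plus strand.
C3: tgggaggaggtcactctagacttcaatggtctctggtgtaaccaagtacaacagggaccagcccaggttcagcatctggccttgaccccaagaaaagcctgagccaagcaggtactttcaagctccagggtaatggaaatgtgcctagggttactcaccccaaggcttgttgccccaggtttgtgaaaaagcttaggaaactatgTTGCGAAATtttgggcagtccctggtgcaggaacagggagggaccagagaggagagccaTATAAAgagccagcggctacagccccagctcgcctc
C9: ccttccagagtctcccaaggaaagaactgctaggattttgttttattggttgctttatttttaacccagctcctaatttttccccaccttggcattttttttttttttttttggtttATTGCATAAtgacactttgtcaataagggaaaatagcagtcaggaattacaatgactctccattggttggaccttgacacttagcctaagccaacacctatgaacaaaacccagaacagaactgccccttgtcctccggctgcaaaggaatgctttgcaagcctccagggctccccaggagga
The motifs reported here, searched on both strands, were a TATA box (TATAAA), C/EBP (TTNNGNAAT), STAT (TTCNNNGAA) and NF-kB. The C3 window holds a C/EBP match that starts 45 bases before the listed start and a TATA box 14 bases after it, and the C9 window holds a C/EBP match 133 bases before its start. Neither holds the STAT or NF-kB letters, or in C9 a TATA box. Of all 32851 windows in the table, 11.5% hold the C/EBP letters, 13.6% the TATA box, 8.30% the STAT letters and 1.63% the NF-kB letters. Such matches describe letters, not bound sites. The windows of Hc, C8a, C8b and C8g were searched as well, and Hc held the C/EBP letters and a TATA box, C8a the STAT letters and C8b and C8g none.

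Factor B and factor I act on the same C3b from opposite sides, the first by building the convertase and the second by destroying C3b. Cfb (chromosome 17, 34856374 to 34862518) reached 1698 TPM in pup 1 against 714 in pup 3, 2.38-fold higher in pup 1, and ranked 64 among endogenous features in pup 1 and 162 in pup 3. Cfi (chromosome 3, 129835884 to 129875332) reached 82.2 TPM in pup 1 against 486 in pup 3, 5.92-fold higher in pup 3. Both genes thus differed between the pups, in opposite directions, and Cfi had the largest ratio of any member. The Cfb to Cfi ratio was 20.6 in pup 1 and 1.47 in pup 3, and the Cfb to C3 ratio was 1.67 in pup 1 and 0.840 in pup 3. Cfb starts 85 nt from the end of C2, its classical pathway relative, on the same strand. The gene Gm20547 spans both and contains 81.0% of the 100-nt windows of Cfb-202, but it was assigned 7.44 expected counts in pup 1 and none in pup 3, against 123668 and 33580 for Cfb.

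Between the libraries, 6 of the 9 members differed by at least 2-fold on log2(TPM + 1), a scale that understates differences of low genes. C8a, C4b, Cfb and C8g were higher in pup 1 by 2.06, 1.31, 1.25 and 1.05 log2 units, and Hc and Cfi had log2 ratios of -1.15 and -2.55 (pup 1 over pup 3). C3 at 0.26 and C8b at -0.55 stayed within 2-fold. The background of such differences was wide. Of genes averaging 10 or more expected counts, 67.6% differed by at least 2-fold, 34.5% being higher in pup 1 and 33.1% in pup 3. Of the 1096 genes averaging at least 100 TPM, 33.1% did, 12.4% higher in pup 1 and 20.7% higher in pup 3. Of the 2875 genes averaging 30 to 3000 TPM, a band set around the 8 detected members, 48.9% did, 21.4% higher in pup 1 and 27.5% higher in pup 3. C9, without counts, enters none of these shares, so 6 of the 8 detected members is the count that stands beside the band. Nothing particular to complement is read from it. The median log2 ratio of the 8 detected members was 0.65, and that of the genes in the band was -0.13. Counting error of the reads alone was small beside these differences. Reads amplified by PCR are not independent molecules, so error from sampling the 13 pg of input RNA is not covered and was not measured. The lowest count of a detected member, 1674 for C8g in pup 3, has an exact 95% Poisson interval of 1595 to 1756.

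Part of the spread in TPM lay in the length assigned to each gene rather than in its counts. When counts were divided by 1 fixed length per gene, that of its longest transcript, 3 members (C8a, Cfb and Cfi) differed by at least 2-fold, and counts per 1000000 gave the same number. The log2 ratio of Hc, -1.15 in TPM, was -0.30 with the fixed length and -0.38 in counts per 1000000. That of C3 was 0.26 in TPM, -0.18 with the fixed length and -0.26 in counts per 1000000. With the fixed length, C3 exceeded Hc by 19.5-fold in pup 1 and 17.9-fold in pup 3, and the Cfb to Cfi ratio was 13.6 in pup 1 and 0.909 in pup 3, where Cfi then stood above Cfb. The C8a to C8b ratio was 1.01 in pup 1 and 0.159 in pup 3. This fixed-length scale was chosen after the data were seen.

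**Figure D2:**
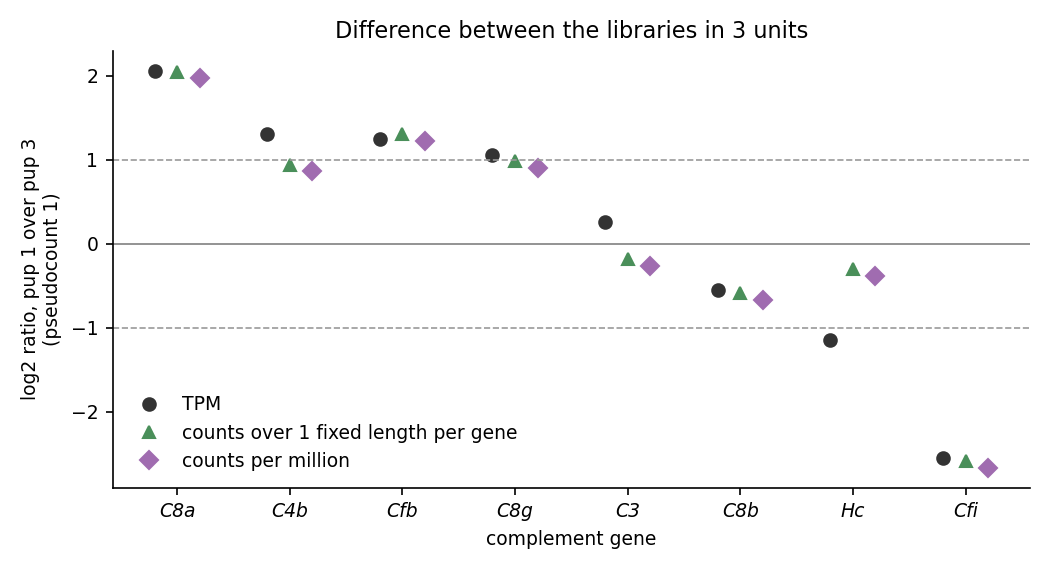
Log2 ratio of pup 1 over pup 3 for the 8 detected members, from TPM (circles), from counts over a fixed length per gene (triangles) and from counts per 1000000 (diamonds), with dashed lines at 2-fold. C8a, Cfb and Cfi lay past 2-fold in all 3 units, whereas C4b, C8g and Hc did so in TPM only.

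The transcript tables show where these lengths came from. Of C3, the full-length C3-201 (5136 nt) took 740 TPM in pup 1 against 849 in pup 3. The short C3-203 (554 nt) added 274 TPM in pup 1, 27.0% of the gene's TPM from 3.24% of its counts, and had none in pup 3. The higher gene-level value of C3 in pup 1 thus rested on the short transcript. Hc showed the same pattern more strongly. Full-length Hc-201 (5445 nt) took 36.8 TPM in pup 1 against 37.1 in pup 3, almost the same level. Short Hc-205 (579 nt) took 26.9 TPM in pup 1 against 57.0 in pup 3, and Hc-203 (655 nt, annotated as a processed transcript) took 0.332 TPM in pup 1 against 46.1 in pup 3. Transcripts under 1200 nt took 74.2% of Hc's TPM but 21.7% of its counts in pup 3. For C4b, full-length C4b-201 (5379 nt) took 74.9 TPM in pup 1 against 39.7 in pup 3, and C4b-203 (749 nt, a retained intron at the end of the gene) had 44.6 and 8.05 TPM.

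The forms to which C8a reads were assigned differed between the libraries. C8a-202 (3617 nt) had 98.2 TPM and 14430 expected counts in pup 1 and none in pup 3, where C8a-203 (3539 nt) carried 88.3% of the gene. C8a-203 itself stood at 18.2 TPM in pup 1 against 27.8 in pup 3, and the short C8a-204 (749 nt) at 17.1 against 3.70. Apart from a few bases at the ends, the forms differ by 1 exon of 94 nt (chromosome 4, 104865454 to 104865547) that C8a-202 includes and C8a-203 skips. Their annotated coding regions are 1761 and 1629 nt long. As estimated, the difference of C8a between the pups thus lay mostly in the form with that exon. Whether this form was absent from the liver of pup 3 or not sampled in 13 pg of RNA was not tested. C8b was assigned to a single transcript, C8b-201, in both libraries, and so was Cfi, to Cfi-201, the only Cfi transcript in the tables.

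The forms of Cfb kept the same order in both livers. Cfb-206 (2397 nt), which starts 345 nt inside the gene and has a coding region of 2133 nt, took 56.1% in pup 1 and 49.5% in pup 3. Cfb-204 (973 nt) took 22.5% and 32.2%, and Cfb-208 (905 nt) 16.4% and 13.9%. The longest form, Cfb-202 (2751 nt), took 3.73% and 4.10%. C8g was spread over C8g-201 (40.6% in pup 1 and 33.1% in pup 3), C8g-204 (35.1% and 43.0%), C8g-202 (15.4% and 19.96%) and C8g-207 (8.88% and 3.98%). C8g-204 and C8g-207 are annotated as processed transcripts without a coding region. How reads are divided among overlapping forms is an estimate, so these shares are less certain than the gene totals.

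**Figure D3:**
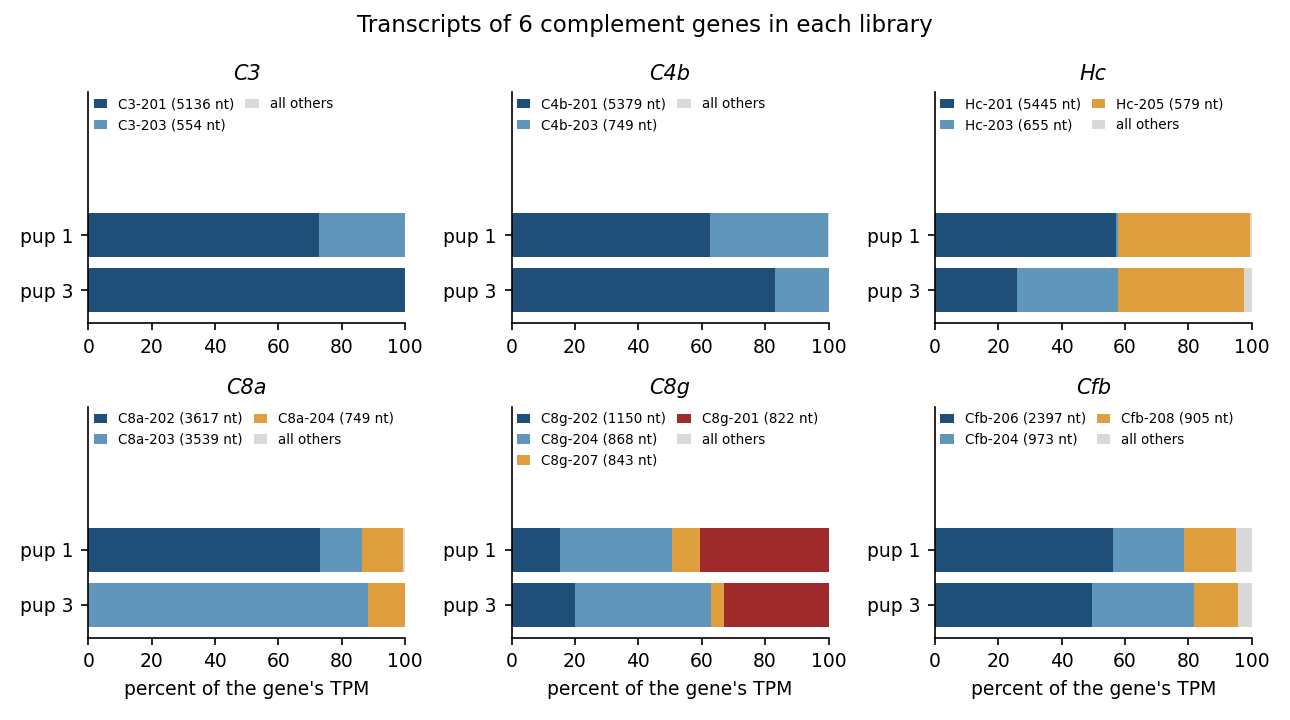
Share of each gene's TPM held by its transcripts in pup 1 (upper bar) and pup 3 (lower bar) for 6 complement genes, with the transcripts above 5% in either library named by length and the others in grey. C8a-202 held 73.0% in pup 1 and none in pup 3, C3-203 held 27.0% in pup 1 only, and Cfb-206 led in both.

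Of 46 other complement genes listed, 18 reached 1 TPM in both libraries, 7 in pup 1 only, 7 in pup 3 only and 14 in neither. Their summed share was 0.407% of TPM in pup 1 and 0.481% in pup 3, so that the 9 members held 45.4% of all listed complement TPM in pup 1 and 34.4% in pup 3. At 2-fold, 10 were higher in pup 1 and 12 in pup 3. Past 2-fold either way were 12.8% of all genes listed and 67.6% of those averaging 10 or more expected counts. The median log2 ratio of the 46 was 0. Of them, 11 had no counts in either library, which sets their ratio to 0. Among regulators in plasma, Vtn (vitronectin, which blocks pore insertion) stood at 1686 TPM in pup 1 against 1677 in pup 3, level with Cfb in pup 1 and above every member in pup 3. Serping1, the C1 inhibitor, had 361 and 326 TPM, and Clu (clusterin) 171 and 352 TPM. Cfhr2 reached 25.5 TPM in pup 1 against 360 in pup 3. C4bp, a cofactor with which factor I cuts C4b, stood at 35.7 TPM in pup 1 and at 0 counts in pup 3. Cpn1, a chain of the carboxypeptidase that inactivates C3a and C5a, stood at 219 TPM in pup 1 against 58.9 in pup 3.

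Of the genes that start the cascade, Mbl2 and C1qb had the highest means. C1qa, C1qb and C1qc, the chains of C1q made by macrophages, had 115, 259 and 0 TPM in pup 1 and 174, 225 and 196 TPM in pup 3. The C1 proteases C1s1 (83.4 and 83.5 TPM) and C1ra (22.1 and 76.6 TPM) were present in both pups, and C2, which pairs with C4b in the classical convertase, had no counts in pup 1 and 40.5 TPM in pup 3. In the lectin route, the mannose-binding lectin gene Mbl2 stood at 362 TPM in pup 1 against 243 in pup 3, whereas Mbl1 had no counts in pup 1 and 50.5 TPM in pup 3. The lectin proteases Masp1 (64.0 and 8.06 TPM) and Masp2 (128 and 0.0106 TPM) were higher in pup 1. The lectin recognition genes Fcna (62.7 and 189 TPM), Fcnb (44.3 TPM and no counts) and Colec11 (43.5 and 95.03 TPM) went either way. Cfd, the protease that activates factor B and is made mainly by fat tissue, had no counts in either library, and Cfp (properdin, made by myeloid cells) had 134 and 50.0 TPM.

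No counts in either library were found for 4 of 8 receptors and 3 of 6 membrane regulators, against 74.9% of all genes listed. None of the receptors reached 1 TPM in both libraries, as did 8.2% of all genes, and Itgb2 had 36.3 TPM in pup 1 only and the Kupffer cell receptor Vsig4 49.0 TPM in pup 3 only. Of the 6 membrane regulators only Cd59a, which blocks C9 assembly on host cells, reached 1 TPM in both (33.3 TPM in pup 1 and 58.0 TPM in pup 3). Cr1l, the mouse C3b regulator on cell surfaces, had no counts in pup 1 and 248 TPM in pup 3.

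**Figure D4:**
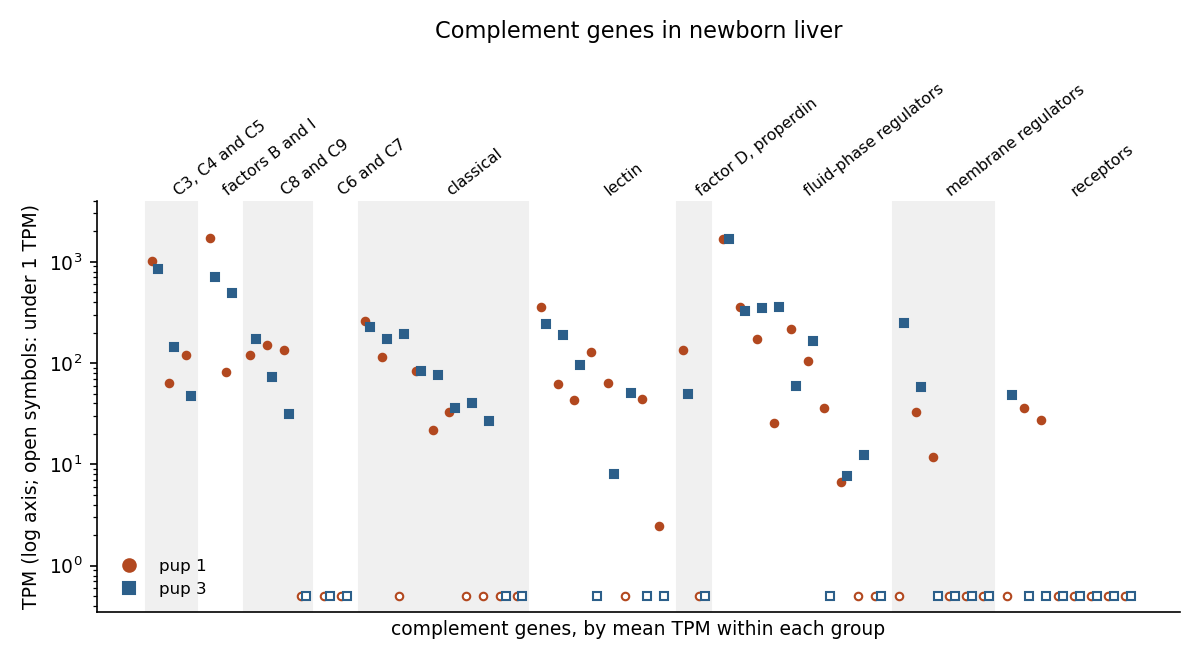
TPM on a log axis for the 9 members (3 groups at the left) and 46 other complement genes in pup 1 (circles) and pup 3 (squares), grouped by role, with open symbols for values under 1 TPM. C6, C7 and C9 stood under 1 TPM in both libraries, while Vtn, Cfb and C3 reached the highest levels.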

How the data were processed

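RNA-seq tables of 2 newborn mouse liver libraries were used. Per the labels' protocols, mirVana extraction was used and libraries followed a SmartSeq protocol, which amplifies cDNA. Per the notes deposited with the files, values refer to mm10 and GENCODE M4. The sources used here name no aligner or quantifier. The authors deposited expected counts (estimated reads), TPM, FPKM, a posterior mean TPM treated as a score, and isoform percent. Listed effective lengths were 99 nt below lengths. GENCODE M21, on the GRCm38 assembly that mm10 denotes, gave names and coordinates, and 42462 of 43346 gene identifiers matched.

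The 97 spike-in features were removed and TPM was rescaled. Depth with spike-ins kept was 56959836 expected counts in the library of pup 1 against 35973980 in that of pup 3. Without spike-ins it was 54817565 in pup 1 against 34792898 in pup 3. Both libraries form 1 group, so no test was made. Ratios are pup 1 over pup 3 on log2(TPM + 1), described against all genes, and detection means 1 TPM. Members and lists (121 of 122 symbols found) were chosen with earlier results of these data known. Named were all members, other complement genes of at least 30 TPM in either library, the 2 leading genes of the lists of relatives and inputs, overlapping genes and isoforms above 5%, and some listed genes are not reported here. Marker lists are given as sums with the 2 leading genes of the hepatocyte and macrophage lists, and Cd68, Timd4, C6, C7, Cfd and the absent genes of the closing section were named after their values were seen. The ratio procedure was run on simulated Poisson counts of 8120 genes and recovered the changes put in. The simulation held no amplification or loss of molecules, so it checks the calculation only and not the reliability of the ratios in these libraries. Promoter entries in the RefSeq table existed for 6 of 9 members. Alternatives used edgeR 4.0.16 and DESeq2 1.42.0 factors on rounded expected counts. Other tools were Python 3.11.15, pandas 2.3.3, scipy 1.17.1, Biopython 1.88 and matplotlib 3.10.9.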

Additional observations from a re-analysis of the deposited data

How the results depend on the processing

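The summed share of the 9 members, 0.295% of TPM, was 0.625% of counts, which are not per length and weigh the long C3 transcript more, and lay between 0.265% and 0.316% under the other alternatives that used both libraries. The count of members past 2-fold, 6, was 3 in counts per 1000000 and 3 with 1 fixed length per gene, 2 at a limit of 4-fold, and 5 or 6 under the remaining alternatives, including TMM, DESeq2 and spike-in scalings, which shifted every log2 ratio by 0.26, 0.26 and -0.25. C8a, Cfb and Cfi stayed past 2-fold under every alternative that kept the 2-fold limit, with log2 ratios of 1.82 to 2.32, 1.00 to 1.51 and -2.80 to -2.29. C4b, C8g and Hc each fell within 2-fold under some, and C3 ranged from -0.26 to 0.52, so its direction is not settled. The level of C9, 0 in TPM, was 0.186 as a posterior mean TPM. The number of other complement genes detected in both libraries was 18 at 1 TPM, 18 at 0.1 TPM and 16 at 10 TPM. Without a filter on low genes, the share of genes past 2-fold was 12.8% of all genes listed, against 67.6% of those with enough counts, and 74.9% of all genes listed had no counts in either library. No paired analysis was possible because there is 1 group.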

Other observations

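Relatives of the members by structure were looked at from lists. Of the thioester proteins outside complement, Pzp, a protease inhibitor of mouse plasma, stood at 1673 TPM in pup 1 against 1311 in pup 3, above C3 in both livers, and A2m had 173 and 38.2 TPM. None of the 5 relatives of C8 and C9 that carry the membrane-attack fold reached 1 TPM in either library, among them the macrophage gene Mpeg1 and the killer cell gene Prf1, both without counts. Of all 43346 genes listed, 7678 reached 1 TPM in either library.

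Of 13 listed factors and receptors known to act on complement genes, 4 reached 1 TPM in both libraries, 3 in pup 1 only and 6 in neither. Il6st, the signalling chain of the interleukin-6 receptor, stood at 35.0 TPM in pup 1 against 39.7 in pup 3, and Il1r1 had 17.4 and 54.5 TPM. Il6ra, Socs3 and Nfkb1 had no counts in either library. The amino acid letters of the C3 thioester site, GCGEQ, were searched in translated coding regions, not as bases. Of 22500 genes with a coding transcript, 12 (0.0533%) held them. Among these 12, C3 was the single complement gene. C4b has other letters at its aligned site, so this search could not find it. A match describes letters and not a thioester bond, and Htr7 and Rcc1 are among the 12.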
